A study of Homo sapiens with 4 samples.

Results

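The genes described here encode the machinery that imports proteins into mitochondria. They were taken from the count table by symbol, as every row that begins with TIMM or TOMM, together with PAM16, SAMM50, CHCHD4, GRPEL1, GRPEL2, PMPCA, PMPCB, MTX1 and MTX2, which gave 34 of the 25737 rows. SKOV-3 is an established human ovarian cancer cell line, and RAME (rosmarinic acid methyl ester) is a derivative of the plant phenol rosmarinic acid. RNA was sequenced from 2 libraries of cells labelled SKOV-3 and given the solvent DMSO and from 2 libraries of the same cells given 40 µM RAME for 24 h, all grown in the same serum-containing medium. The comparison asks which transcripts change when these cells are exposed to RAME.

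Most mitochondrial proteins are made in the cytosol and must cross one or both mitochondrial membranes. The TOM complex is the common gate of the outer membrane, where receptors recognise the incoming chain and pass it to the TOMM40 channel. From there the SAM complex inserts barrel-shaped proteins into the outer membrane, small TIM chaperones escort hydrophobic proteins through the intermembrane space, and the TIM22 and TIM23 complexes insert or pull proteins into and through the inner membrane. A motor built on the chaperone HSPA9 draws the chain into the matrix, where the processing peptidase removes the targeting signal.

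With RAME, TIMM10, TIMM8B and TOMM6 were lower and no import gene passed the test as higher. These 3 genes had enough reads to be tested through their DMSO libraries alone. With RAME they had at most 7 reads per library, so their lower calls are not independent of the limit on reads. TIMM10 and TIMM8B belong to the small TIM chaperones of the intermembrane space, and TOMM6 is a small subunit that stabilises the TOM complex. The most abundant import transcripts, of the receptors TOMM70A and TOMM20, did not pass the test. In all 3 lower genes DMSO replicate 1 also held several times the reads of DMSO replicate 2, and this gap is given beside each of them.

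The promoters of TIMM10 and TOMM6 are shown because they belong to genes that were both called lower. They are RefSeq windows of the GRCh38.p14 build, given 5′ to 3′ on the strand of the gene. Each runs from 250 bases before to 50 bases after the gene start. A window was found for 31 of the 34 genes, and none for TIMM8B, the remaining gene called lower. The TIMM10 window is chr11:57530705-57531004 on the minus strand and the TOMM6 window is chr6:41787444-41787743 on the plus strand. The capitals mark CCGGAAG, the core recognised by ETS family factors such as the respiratory gene regulator GABP, on either strand.
TIMM10: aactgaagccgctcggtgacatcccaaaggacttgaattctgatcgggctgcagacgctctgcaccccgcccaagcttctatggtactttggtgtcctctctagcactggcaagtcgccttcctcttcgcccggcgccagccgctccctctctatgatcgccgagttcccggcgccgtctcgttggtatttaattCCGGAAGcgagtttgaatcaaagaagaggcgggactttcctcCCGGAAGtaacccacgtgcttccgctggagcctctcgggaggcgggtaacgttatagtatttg
TOMM6: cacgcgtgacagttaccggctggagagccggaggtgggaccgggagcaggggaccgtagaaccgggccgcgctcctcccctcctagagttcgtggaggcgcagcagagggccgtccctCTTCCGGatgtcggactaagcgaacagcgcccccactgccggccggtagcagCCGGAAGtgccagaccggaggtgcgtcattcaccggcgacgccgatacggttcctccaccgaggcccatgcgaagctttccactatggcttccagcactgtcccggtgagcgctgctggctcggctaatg
Each window held the letters at 2 places, with the first base at -55 and -13 from the start in TIMM10 and at -132 and -80 in TOMM6. They occurred in 14 of the 31 import gene windows (45.2%), in 10.7% of all 27305 RefSeq windows and in 19% of the 3501 windows of genes tested here. The 14 included TOMM70A, TOMM22 and PMPCB, which were not called in the main test. The consensus of NRF1, another regulator of respiratory genes, occurred on either strand in 7 of the 31 windows (22.6%) and in 14.3% of the windows of tested genes, and in neither printed window. The TATA box letters TATAAA, searched on both strands, were in 0 of the 31 windows and in 5.2% of those of tested genes. Also searched were the CCAAT box, in 38.7% of the 31 windows and 37.6% of those of tested genes, and the YY1 letters AAGATGG, in 12.9% and 9.57%. Neither printed window held the NRF1, TATA, CCAAT or YY1 letters, so no motif overlapped another there, and a match describes the letters only.

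The library kit primes at the poly(A) tail, so that a transcript gives about 1 read whatever its length, and levels are given as reads and as CPM, reads scaled to a common library total with TMM factors, which assume that most genes do not differ. A value after ± is the standard error of a log2 fold change unless it is marked as an SD. Reads per library summed to between 2306379 and 2543566 for DMSO and between 1441575 and 1777782 for RAME, and reads from PCR copies without molecular identifiers are not independent molecules. Separate cultures are stated neither in the labels nor in the methods, and the p-values therefore cover the spread of these libraries alone, which may be technical. A test by permutation of 2 against 2 libraries cannot give an exact two-sided p under 0.333, and single genes were therefore tested with the edgeR quasi-likelihood model with Benjamini-Hochberg adjustment over all 4517 genes with enough reads. The cell identity was checked on markers: of 16 epithelial and ovarian markers, 14 had under 10 reads over all libraries, KRT7, KRT19, EPCAM, ERBB2 and MSLN among them had none, and PAX8 had 9 to 24 reads per library. Summed reads of the fibroblast markers were 59 to 79 with DMSO and 22 to 37 with RAME, those of the hepatocyte markers were 12 to 170 and 47 to 137, and the 5 leukocyte, 4 endothelial and 7 neural markers each had under 10 reads over all libraries. Most of the epithelial and ovarian markers thus did not bear out the label SKOV-3, and the reason was not tested. The part of these markers in the results below was also not tested, and the cells are called here by their label. In bulk RNA fewer cells of a type and less RNA per cell cannot be told apart.

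Of the 34 import genes, 13 had enough reads to be tested and 21 did not, 1 of them (TOMM20L) with no read. Together the 34 genes took 0.457% and 0.282% of the reads in DMSO replicates 1 and 2 and 0.206% and 0.322% in RAME replicates 1 and 2. The groups overlapped in this share, with RAME replicate 2 above DMSO replicate 2. TOMM20 and TOMM70A supplied 80.4% of all import gene reads, so the share follows these receptors. At an adjusted p under 0.05 in edgeR, 3 of the 13 tested genes were lower and 0 were higher, while over all 4517 tested genes 7.08% were lower and 6.46% were higher. At an unadjusted p under 0.05, 4 were lower and 1 was higher, against 16% and 15.3% of all tested genes. DESeq2 called the same 3 genes lower and 0 higher, and limma-voom called 0 in either direction. Of all 4517 tested genes, DESeq2 called 383 lower and 280 higher, and limma-voom 185 lower and 248 higher. The median log2 fold change of the 13 genes was −0.15, and that of all tested genes was 0.01. Both RAME libraries lay below both DMSO libraries in 4 of the 13 genes (30.8%, against 29.5% of all tested genes) and above them in 4 (30.8%, against 31.2%), which is close to the background in both directions. Some genes had enough reads through 1 group alone, and the limit on reads favours a lack of overlap in them. These were TOMM6, TIMM8B and TIMM10 through DMSO and TOMM40 through RAME.

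**Figure D1:**
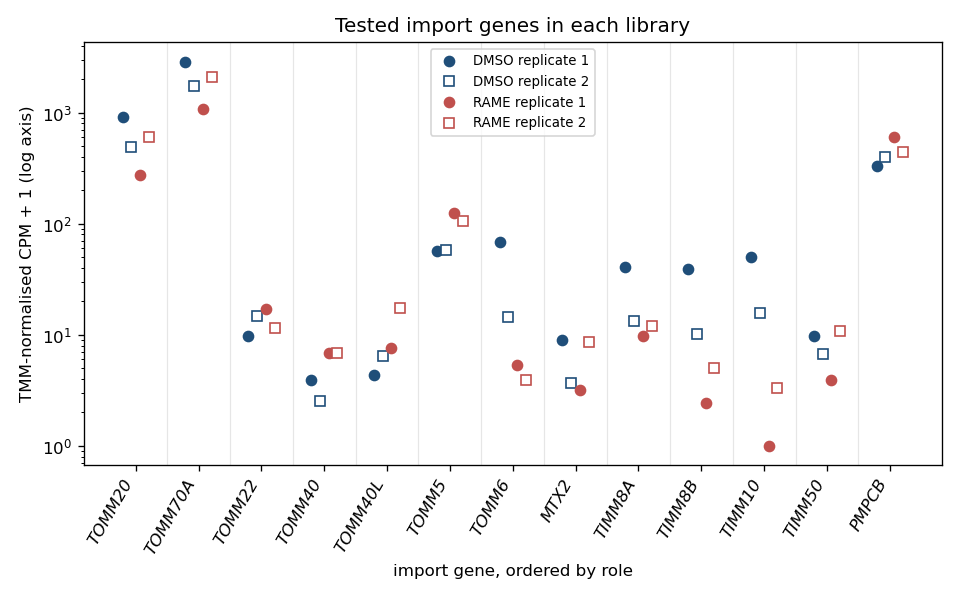
TMM-normalised CPM plus 1 on a log axis for the 13 tested import genes, with 1 point for each of the 2 DMSO (blue) and 2 RAME (red) libraries, replicate 1 filled and replicate 2 open. TOMM6, TIMM8A, TIMM8B and TIMM10 have both RAME points below both DMSO points, with DMSO replicate 1 far above DMSO replicate 2, whereas TOMM5 has tight pairs with RAME above.

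At the outer membrane, the receptor TOMM70A, which receives carrier proteins from cytosolic chaperones, had 6844 and 4472 reads with DMSO and 1484 and 3579 with RAME. In CPM these were 2876 and 1721 against 1078 and 2082. The groups overlapped, since RAME replicate 2 exceeded DMSO replicate 2, and the log2 fold change of −0.54 ± 0.36 did not pass the test (adjusted p = 0.334 in edgeR). TOMM20, the receptor for cleavable targeting signals, had 2156 and 1281 reads with DMSO and 378 and 1037 with RAME, or 906 and 493 CPM against 275 and 603. Its groups overlapped in the same way, and its log2 fold change was −0.67 ± 0.41 (edgeR adjusted p = 0.294). TOMM20 was called lower in 2 of 14 alternatives. These were the fit without RAME replicate 2 (log2 fold change −1.35) and a crossed replicate block. That block pairs libraries of unlike number and was chosen after seeing the data. Over the alternatives with all 4 libraries, the adjusted p ran from 0.000479 in that block to 0.397 in the replicate block (edgeR). DMSO replicate 1 was above DMSO replicate 2 by a CPM ratio of 1.84 in TOMM20 and 1.67 in TOMM70A, and RAME replicate 2 was above RAME replicate 1 by 2.20 and 1.93. In both receptors the libraries of each group differed by more than the fitted change between the groups.

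TOMM22, the central receptor that links the other receptors to the channel, had 21 and 36 reads with DMSO and 22 and 18 with RAME. Its CPM of 8.83 and 13.9 against 16.0 and 10.5 overlapped (log2 fold change 0.21 ± 0.56, edgeR adjusted p = 0.841). The channel gene TOMM40 had 7 and 4 reads with DMSO and 8 and 10 with RAME, and its paralogue TOMM40L had 8 and 14 against 9 and 28. Both had RAME above DMSO in CPM without overlap, with log2 fold changes of 1.36 (standard error 0.77) and 1.38 (standard error 0.68), and neither passed the test (adjusted p = 0.255 and 0.190 in edgeR). TOMM40 had enough reads to be tested through its RAME libraries alone, so its lack of overlap is not independent of the limit on reads. Without each library in turn, the log2 fold change ran from 0.97 to 1.87 in TOMM40 and from 0.57 to 1.88 in TOMM40L, the lowest TOMM40L value being that without RAME replicate 2.

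Of the small TOM subunits, TOMM6 was lower with RAME. It had 162 and 35 reads with DMSO and 6 and 5 with RAME, or 68.1 and 13.5 CPM against 4.36 and 2.91. Both RAME libraries were far below both DMSO libraries, and the DMSO libraries differed from each other by a CPM ratio of 5.05. The log2 fold change was −3.48 ± 0.80 (edgeR adjusted p = 0.0206), and over the reads of both groups the DMSO to RAME ratio of CPM was 11.1 with a 95% exact binomial interval of 6.09 to 22.7, which covers counting error only. Without DMSO replicate 1 the log2 fold change was −1.89 and the call was lost. The adjusted p was highest in limma-voom, at 0.165. It was lowest, at 6.52e-09 in edgeR, in the crossed replicate block chosen after seeing the data.

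TOMM5, a small subunit that helps hand the chain to the channel, had 132 and 148 reads with DMSO and 171 and 180 with RAME. In CPM it went from 56.2 ± 1.05 to 114 ± 13.8 (SD, n = 2 each), with replicates close together and no overlap. The log2 fold change was 1.02 ± 0.32, with an unadjusted p of 0.00748 and an adjusted p = 0.0522 in edgeR, just short of the threshold. It was called higher with upper quartile scaling at a log2 fold change of 1.14 (edgeR adjusted p = 0.0368) and in libraries thinned to the smallest total (1.11, adjusted p = 0.0467). Over the alternatives with all 4 libraries, the adjusted p in edgeR was highest in the replicate block, at 0.164. It was lowest, at 0.000459, in the crossed replicate block chosen after seeing the data. TOMM7, another small TOM subunit, had 11 and 4 reads with DMSO and 8 and 2 with RAME and was not tested.

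In the sorting and assembly machinery, MTX2, an outer membrane partner of SAMM50, was the gene with enough reads. It had 19 and 7 reads with DMSO and 3 and 13 with RAME, or 7.99 and 2.69 CPM against 2.18 and 7.56. Each group spanned nearly the same range (log2 fold change −0.08 ± 0.82, edgeR adjusted p = 0.963). SAMM50, the barrel protein that catalyses insertion, had 3 and 0 reads with DMSO and 4 and 4 with RAME, and MTX1 had 2 and 1 against 3 and 2, and neither was tested.

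The small TIM chaperones of the intermembrane space were read mainly in DMSO replicate 1. Together with CHCHD4, the oxidase that folds them, they summed to 335 and 106 reads with DMSO and 19 and 38 with RAME, or 141 and 40.8 CPM against 13.8 and 22.1. All 6 small TIM genes were read more often in the first DMSO library than in the second. In 5 of the 6 every RAME value in CPM was under every DMSO value. These were the 3 tested ones (TIMM8A, TIMM8B and TIMM10) and TIMM10B and TIMM13, which had too few reads to be tested. Over all tested genes this held in 29.5%, a share that leaves out genes below the limit on reads, as TIMM10B and TIMM13 were. The exception was TIMM9, with 5 reads in DMSO replicate 1 and 0 elsewhere.

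TIMM10, which forms a ring-shaped chaperone with TIMM9 that carries membrane proteins to TIM22, had 116 and 38 reads with DMSO and 0 and 4 with RAME. In CPM these were 48.8 and 14.6 against 0 and 2.33, so that every RAME value lay below every DMSO value, with a DMSO 1 to DMSO 2 ratio of 3.33. The log2 fold change was −4.58 ± 0.95 (edgeR adjusted p = 0.0145), and the ratio of CPM over the reads of both groups was 23.9 with a 95% counting interval of 9.17 to 89.0. TIMM10 kept its call without any 1 library and was −3.46 without DMSO replicate 1 (adjusted p = 0.0163 in edgeR). In limma-voom the adjusted p was 0.0666, the highest of its alternatives. The lowest, 2.01e-11 in edgeR, came from the crossed replicate block chosen after seeing the data.

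TIMM8B, a partner of TIMM13 in a related chaperone, had 91 and 24 reads with DMSO and 2 and 7 with RAME, or 38.2 and 9.24 CPM against 1.45 and 4.07. The groups did not overlap, and DMSO replicate 1 exceeded DMSO replicate 2 by a ratio of 4.14. The log2 fold change was −3.03 ± 0.82 (edgeR adjusted p = 0.0369), with a ratio of CPM over both groups of 7.95 and a 95% counting interval of 4.04 to 17.8. Without DMSO replicate 1 it was −1.67 and was not called. Over the alternatives with all 4 libraries, the adjusted p was highest in limma-voom, at 0.162. It was lowest, at 5.4e-06 in edgeR, in the crossed replicate block chosen after seeing the data.

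TIMM8A, whose loss causes the human deafness-dystonia syndrome and which pairs with TIMM13, had 95 and 32 reads with DMSO and 12 and 19 with RAME. In CPM these were 39.9 and 12.3 against 8.72 and 11.1, so that DMSO replicate 2 lay close above RAME replicate 2. The log2 fold change of −1.39 ± 0.62 did not pass the test (adjusted p = 0.153 in edgeR) and was −0.31 without DMSO replicate 1. Without DMSO replicate 2 it was −1.998 and called lower (adjusted p = 0.0133 in edgeR, in a range of 0.0133 to 0.860 over its alternatives). TIMM13 had 17 and 10 reads with DMSO and 5 and 5 with RAME, TIMM10B had 10 and 2 against 0 and 1, and CHCHD4 had 1 and 0 against 0 and 2. These last genes fell below the limit on reads and were not tested.

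**Figure D2:**
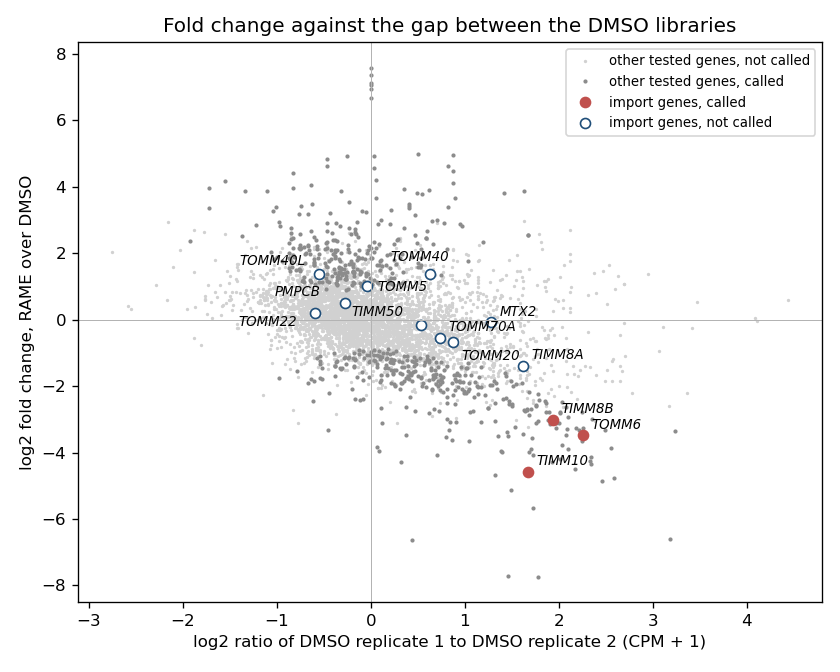
Log2 fold change of RAME over DMSO (vertical axis) against the log2 ratio of DMSO replicate 1 to DMSO replicate 2 in CPM plus 1 (horizontal axis) for all 4517 tested genes, with the 13 import genes named. The 3 called import genes lie at the lower right, where DMSO replicate 1 is more than 2-fold above DMSO replicate 2. Both axes use the DMSO libraries, so the points are not independent of them.

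The gap between the DMSO libraries was measured in all tested import genes. DMSO replicate 1 was more than 2-fold above DMSO replicate 2, with 1 added to each CPM, in 5 of the 13 tested import genes (TOMM6, MTX2, TIMM8A, TIMM8B and TIMM10), and DMSO replicate 2 was more than 2-fold above in 0. Over all tested genes the first share was 11.4%, and among all 320 genes called lower it was 34.7%. The part of this gap in the lower calls was not tested beyond the fit without DMSO replicate 1. There the log2 fold changes of TIMM10, TOMM6 and TIMM8B were −3.46, −1.89 and −1.67, against −4.58, −3.48 and −3.03 with all 4 libraries.

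**Figure D3:**
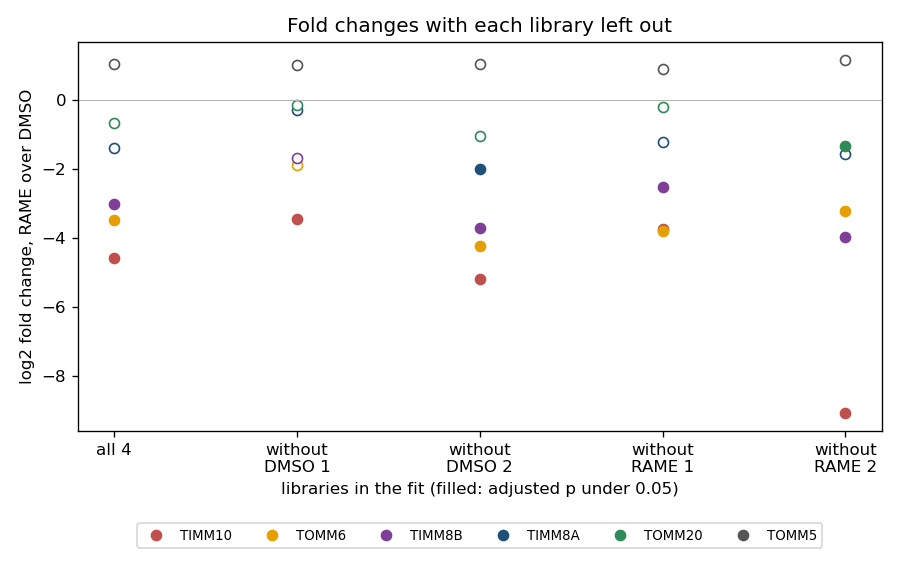
Log2 fold change of RAME over DMSO for 6 import genes in the fit of all 4 libraries and with each library left out in turn, filled where the adjusted p was under 0.05. TIMM10 is filled in all 5 fits, TOMM6 and TIMM8B are open without DMSO replicate 1, and the lowest TIMM10 point is a fit in which the remaining RAME library has 0 reads, so its size is set by the prior count.

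In the inner membrane complexes, TIMM50, the TIM23 receptor that meets chains leaving the TOM channel, had 21 and 15 reads with DMSO and 4 and 17 with RAME. Its CPM of 8.83 and 5.77 against 2.91 and 9.89 overlapped (log2 fold change −0.15 ± 0.71, edgeR adjusted p = 0.914). TIMM23, the TIM23 channel subunit, had 0 reads in both DMSO libraries and 9 and 7 with RAME. With 0 reads allowing up to 3 over the DMSO group, and the RAME reads taken as exact, its CPM was 8.57-fold or more higher with RAME. The 95% exact binomial interval, which does not take the RAME reads as exact, allowed a DMSO to RAME ratio of CPM of up to 0.161. Both limits cover counting error only. It was too low for the main test and was called higher in a fit of all 11683 genes with a read (adjusted p = 0.0159 in edgeR). The copy TIMM23B, with 4 and 0 reads against 3 and 1, is nearly identical to it, so the assignment of reads between them is uncertain.

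The remaining inner membrane and matrix genes were scarce. TIMM17A had 8 and 1 reads with DMSO and 3 and 4 with RAME, and TIMM17B and TIMM21 had at most 3 reads in any library. TIMM22, the carrier insertion channel, had 0 and 1 reads against 0 and 2. Among the motor genes, GRPEL1, the nucleotide exchange factor of HSPA9, had 1 and 10 reads against 3 and 14, GRPEL2 had 8 and 1 against 1 and 5, PAM16 had 7 and 5 against 3 and 0, and TIMM44, which anchors the motor at the channel, had 6 and 0 against 1 and 0. TOMM34, a cytosolic cochaperone of import, had 0 and 4 reads against 1 and 1, and TIMMDC1, a complex I assembly factor that carries the TIMM name, had 1 read in all. These genes fell below the limit on reads and were not tested.

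Of the processing peptidase, PMPCB encodes the catalytic subunit and PMPCA its partner. PMPCB had 777 and 1029 reads with DMSO and 821 and 751 with RAME, or 327 and 396 CPM against 596 and 437, without overlap. Its log2 fold change was 0.52 ± 0.30 (edgeR adjusted p = 0.267). These reads are uncertain, because the next row of the table, DNAJC2, had 867 and 1109 reads against 899 and 825, with a PMPCB to DNAJC2 ratio between 0.896 and 0.928 in every library, and the strand setting of the counting is not given in the sources used here. PMPCA had 8 and 3 reads with DMSO and 3 and 4 with RAME.

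The 3 genes called lower have short transcripts, with a median length in the GENCODE v29 basic set of 530 nt for TIMM10, 616 nt for TOMM6 and 812 nt for TIMM8B. TOMM5, which was not lower, has 770 nt, and the receptors TOMM20 and TOMM22 have 3387 and 2040 nt. Over all tested genes with a transcript under 800 nt, 5.86% were called lower and 11.4% higher, and DMSO replicate 1 was more than 2-fold above DMSO replicate 2 in 18.3%. From 800 to 1500 nt, the range that holds TIMM8B, these shares were 6.95%, 7.95% and 18.9%. In genes of 4000 nt or more these shares were 7.94%, 4.56% and 7.94%. A fit chosen after seeing the data removed the trend on transcript length from each library. All 3 genes were still called lower, with log2 fold changes of −4.60, −3.46 and −3.01 for TIMM10, TOMM6 and TIMM8B. The median log2 fold change was only 0.13 under 800 nt and −0.01 from 800 to 1500 nt. Removing a trend of that size could hardly alter changes as large as these, so the part of length in them was not tested.

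**Figure D4:**
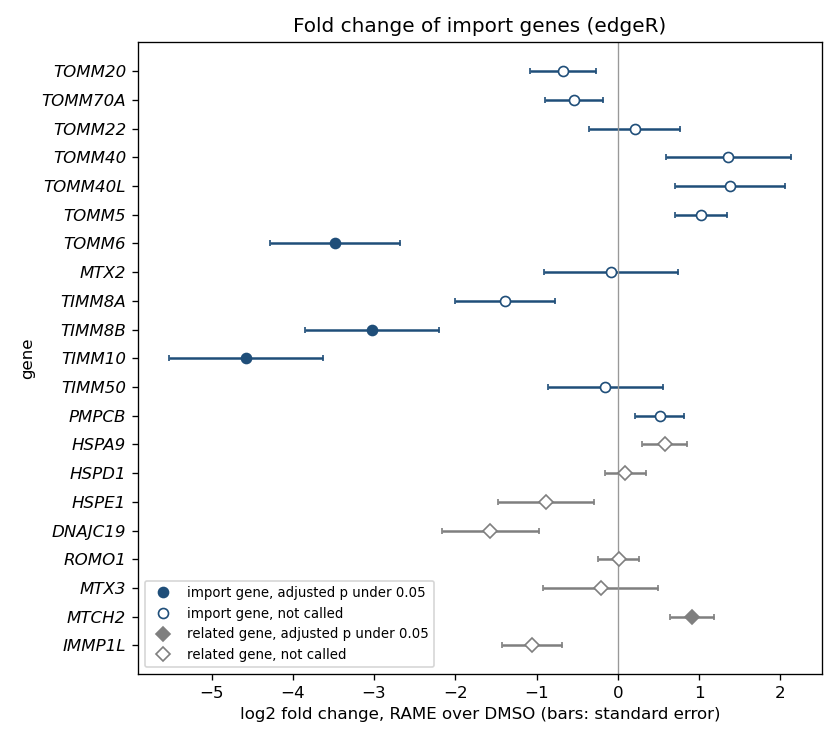
Log2 fold change of RAME over DMSO with its standard error in edgeR for the 13 tested import genes (circles) and the 8 tested genes of the related list (diamonds), filled where the adjusted p was under 0.05. TIMM10, TOMM6 and TIMM8B lie between −4.58 and −3.03, and MTCH2 at 0.91 is the filled related gene.

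Genes that act beside this machinery were read as a separate list of 20, of which 8 were tested. At an adjusted p under 0.05 in edgeR, 1 was higher and 0 were lower, against 6.46% and 7.08% of all tested genes. At an unadjusted p under 0.05 1 was higher and 2 were lower, against 15.3% and 16% of all tested genes. DESeq2 and limma-voom each called 1 higher and 0 lower. Of all 4517 tested genes they called 280 and 248 higher and 383 and 185 lower. The higher gene was MTCH2, an insertase of the outer membrane, with 1867 and 2405 reads with DMSO and 2413 and 2511 with RAME (log2 fold change 0.91 ± 0.27, edgeR adjusted p = 0.0449). MTCH2 was called in 0 of the 4 fits that left out 1 library and was not called with no filter on reads. The motor chaperone HSPA9 had 1091 and 1407 reads against 926 and 1407 at a log2 fold change of 0.58 (edgeR adjusted p = 0.187), and ROMO1, a subunit linked to TIM23, had 5539 and 6521 against 3009 and 4612 at a log2 fold change of 0.01 (edgeR adjusted p = 0.987). The J-domain gene DNAJC19, which regulates the motor, had 109 and 55 reads against 8 and 28 at a log2 fold change of −1.57 (edgeR adjusted p = 0.103), with a DMSO 1 to DMSO 2 ratio of CPM of 2.16. DNAJC19 was called without DMSO replicate 2, without RAME replicate 2 and with no filter on reads. IMMP1L, a subunit of the inner membrane peptidase, had 177 and 174 reads against 39 and 68 at a log2 fold change of −1.05 (edgeR adjusted p = 0.077), with DMSO replicates that were close together. The median log2 fold change of the 8 genes was −0.10, against 0.01 over all tested genes.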

How the data were processed

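The authors prepared QuantSeq 3′ libraries, aligned single-end reads with Bowtie2 and deposited raw read counts per gene; the submitters' processing notes name hg19. For annotation, counter and strand setting: not given in the sources used here. The 6 deposited columns of normalized values or averages and the 2 of the authors' own fold and p-value were not used. The counts as deposited entered edgeR 4.0.16 (R 4.3.3) with filterByExpr (min.count 10, min.total.count 15), TMM (factors 0.962 to 1.04), robust glmQLFit and glmQLFTest on the group, and Benjamini-Hochberg adjustment over 4517 genes. The common biological coefficient of variation came to 29.9%. Each standard error is the absolute log2 fold change over the square root of its F statistic. Libraries of a group differed beyond sampling noise (chi-square per gene 28.8 for DMSO and 15.4 for RAME). Members, gene lists and alternatives were chosen with earlier results of these data known. Named are all tested members, the remaining members by their reads, and of each other list the called genes and up to 3 by smallest p with a mean of at least 20 reads; HSPA9 and ROMO1 were named after their values were seen. Transcript lengths are medians over the GENCODE v29 basic set, matched for 4475 tested genes. Neighbouring rows within 5 places were compared for shared reads (tolerance 15% plus 1 read). Alternatives were DESeq2 1.42.0, limma-voom (limma 3.58.1), other scalings, no filter, a replicate block, leaving out each library, and, added later, thinning, a length offset and a crossed block. The scripts were tested on simulated counts. Without 1 library, the lone library of a group is assumed to vary like the others.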

Additional observations from a re-analysis of the deposited data

How the results depend on the processing

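Over the 13 tested import genes and 14 alternatives, 160 of the fold changes kept their direction and their side of the threshold, 9 became called, 6 lost a call and 7 changed sign. Without each library in turn, the genes called over the whole table numbered 323 to 857, the import genes called lower 1 to 4 and the related genes called 0 to 2. The count over the whole table was 323 without DMSO replicate 1 and 344 without RAME replicate 1. Import genes called lower numbered 0 in limma-voom, with adjusted p = 0.0666 (TIMM10), 0.165 (TOMM6) and 0.162 (TIMM8B). Over the whole table limma-voom called 185 of 4517 genes lower. TIMM8B also lost its call in thinned libraries (adjusted p = 0.0558 from edgeR). Import genes called higher numbered 1 with upper quartile scaling (TOMM5), 1 with no filter (TIMM23) and 1 in thinned libraries (TOMM5). Over the whole table those fits called 381, 306 and 291 genes higher. Related genes called numbered 0 with library size only, with the replicate block and with the length offset. With no filter DNAJC19 was called in place of MTCH2, and without DMSO replicate 2 or RAME replicate 2 the related genes called were DNAJC19 and HSPE1. The cause of these changes was not tested. The genes that changed sign were never called: TOMM22 ran from −0.12 to 0.57, MTX2 from −1.26 to 0.88 and TIMM50 from −1.31 to 0.44 without each library, and MTX2 was 0.018 with upper quartile scaling. That scaling moved the median log2 fold change of all genes by 0.11 and the split of calls from 47.7% to 59.3% higher, while library size only moved them by −0.09 and to 39.6%. Same-numbered libraries deviated in opposite directions (correlation −0.44), so the numbers were not taken as pairs. The replicate block gave 437 genes over the whole table, 206 higher and 231 lower, with the same 3 import genes lower. A crossed replicate block, chosen after seeing the data, gave 1787 genes over the whole table, 2 import genes higher and 6 lower, and 5 related genes. The untested import genes had at most 37 reads each over all libraries, which limits what their reads can show. The same limit holds for TOMM40, which was tested with 29 reads in all, since the filter counts libraries above a cutoff and not the total alone.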

Other observations

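Genes of the MICOS scaffold, which shapes the inner membrane, and of the outer membrane channels were read as a list of 12, with 7 tested. In edgeR 1 was lower and 0 were higher at an adjusted p under 0.05, against 7.08% and 6.46% of all tested genes. At an unadjusted p under 0.05 the counts were the same, against 16% and 15.3% of all tested genes. DESeq2 also gave 1 lower and 0 higher, against 383 and 280 of all 4517 tested genes. In limma-voom 0 were lower and 0 higher, against 185 and 248. The lower one was the pseudogene MINOS1P1, with 233 and 44 reads with DMSO and 2 and 4 with RAME, a log2 fold change of −4.85 (edgeR adjusted p = 0.0109) and a DMSO 1 to DMSO 2 ratio of CPM of 5.78. Reads may be split between it and its parent gene, so this value is uncertain. MINOS1P1 also had enough reads to be tested through its DMSO libraries alone. MINOS1, a core MICOS subunit, had 132 and 55 reads against 9 and 45, a log2 fold change of −1.20 (edgeR adjusted p = 0.240). CHCHD3, another subunit, had 63 and 48 reads against 22 and 29, a log2 fold change of −0.45 (edgeR adjusted p = 0.564). Of the 7 tested genes 5 had a negative and 2 a positive log2 fold change. The positive ones were IMMT at 0.98 (edgeR adjusted p = 0.281) and C19orf70 at 0.32 (edgeR adjusted p = 0.758).

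Of 6 tested mitochondrial proteases of quality control, 0 were called in edgeR, DESeq2 or limma-voom. Over all tested genes edgeR called 7.08% lower and 6.46% higher. Of the 4517 tested genes DESeq2 called 383 lower and 280 higher, and limma-voom 185 and 248. At an unadjusted p under 0.05 in edgeR, 1 was lower and 0 were higher, against 16% and 15.3% of all tested genes. The lower gene was PARL, a rhomboid protease of the inner membrane, with 130 and 35 reads with DMSO and 13 and 23 with RAME. Its log2 fold change was −1.56 (edgeR adjusted p = 0.132), with a DMSO 1 to DMSO 2 ratio of CPM of 4.06. HTRA2, a protease of the intermembrane space, had 45 and 36 reads against 11 and 13, a log2 fold change of −1.07 (edgeR adjusted p = 0.212). CLPX, the unfoldase of the matrix ClpXP protease, had 61 and 56 reads against 18 and 23, a log2 fold change of −0.83 (edgeR adjusted p = 0.266). Of the 6 tested proteases 5 had a negative log2 fold change and 1 a positive one, AFG3L2 at 0.27 (edgeR adjusted p = 0.747).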
